A study of Mus musculus with 4 samples.

Results

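Acetylation of histone H3 at lysine 27 (H3K27ac) in the ventricles of the young mouse heart was mostly called in groups of intervals, and a minority of short intervals stood alone. Isolated narrow intervals were chosen by 2 values of the deposited H3K27ac list: a width (end minus start) under 1000 bp, and a border-to-border distance of more than 12.5 kb to the nearest other H3K27ac interval on either side. This rule found 3899 of 75011 H3K27ac intervals, 5.20% of the list, which together covered 1.87 Mb or 0.752% of the acetylated length. A further 28864 narrow intervals had a neighbour within 12.5 kb and served as the background, here called neighboured narrow intervals.

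The material was the ventricles of wild-type C57BL/6 mice at postnatal day 6 (P6), with the tissue of 10 hearts pooled for each precipitation. Chromatin immunoprecipitation followed by sequencing was carried out with antibodies against H3K27ac, GATA4 and TCF7L2, and the labels give 2 biological replicates for each. There was no other genotype, age or treatment, and whole ventricles hold several cell types, whose shares in a peak cannot be told apart. The input belongs to the series and was not analysed here. Each antibody had 1 deposited list of positions, with 75011 H3K27ac, 10530 GATA4 and 774 TCF7L2 intervals, so that no value below has a replicate error, and read depth is unknown.

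H3K27ac marks the nucleosomes beside active promoters and enhancers. It is placed by the acetyltransferases p300 and CBP, which are brought in by transcription factors on the open DNA between those nucleosomes. GATA4 is a zinc-finger factor needed for formation of the heart and for the gene programme of its muscle cells, and it can recruit p300. TCF7L2 is a member of the TCF/LEF family, which binds DNA and, together with beta-catenin, carries Wnt signals to target genes. Regulatory elements that lie close together can form acetylated stretches, whereas an element alone can give a short acetylated island. Positions are 1-based in the mouse build mm9. The gene and promoter tables at hand are of GRCm38.p6, another build, so no interval was assigned to a gene, a promoter or a sequence.

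The values that chose the members are given as a description. Their widths ran from 6 to 999 bp with a median of 453 bp and quartiles of 258 and 671 bp. The most common width was 125 bp, shared by 68 members, and 7 members were narrower. For neighboured narrow intervals the median was 434 bp and the most common width was also 125 bp, with 434 intervals. The distance from a member to the nearest H3K27ac interval had a median of 28.2 kb and quartiles of 18.1 and 58.5 kb. For neighboured narrow intervals the median distance was 924 bp, and 53.3% of them had another interval within 1 kb. Distances of up to 25 kb made up 44.4% of the members, whereas 543 members (13.9%) lay more than 100 kb from any other H3K27ac interval and 24 more than 1 Mb.

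**Figure D1:**
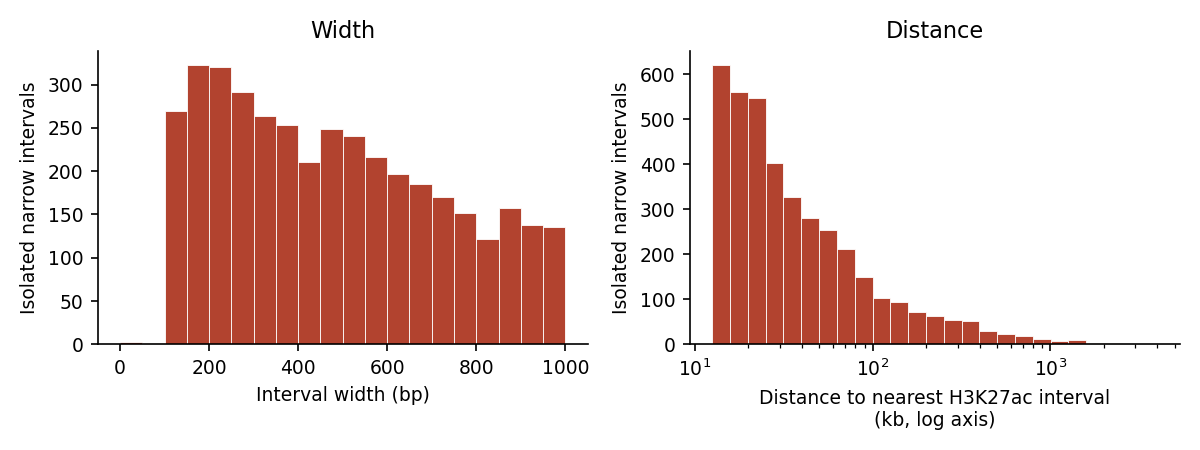
Number of isolated narrow H3K27ac intervals by width in bp (left, bars of 50 bp) and by distance in kb to the nearest other H3K27ac interval (right, log axis). The quartiles were 258 and 671 bp for width and 18.1 and 58.5 kb for distance, with a tail to 3175.4 kb.

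The most distant member lay on the X chromosome from 117040919 to 117041077. It spanned 159 bp and was 3175.4 kb from the next H3K27ac interval. It was followed by a member of 175 bp on chromosome 16 from 81274027 to 81274201, which was 2414.8 kb away, and by a member on chromosome 1, 192 bp wide from 117861895 to 117862086, at 2344.7 kb. The fourth, on the X chromosome from 143988029 to 143988384, was 356 bp wide and 2047.4 kb away, and the fifth, on chromosome 1 from 28912341 to 28912622, was 282 bp wide and 1930.5 kb away. None of these 5 overlapped GATA4 or TCF7L2. For each of the 5 a GATA4 peak was nearer than any other H3K27ac interval. It was 152 and 195 kb away for the first and second and 924 to 1491.2 kb for the others.

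Near the thresholds the choice turned on few bp. The widest members were 2 intervals of 999 bp, on chromosome 12 from 119523413 to 119524411 and on chromosome 9 from 100917913 to 100918911. Just outside were isolated intervals of 1000 bp on chromosome 13 from 48005013 to 48006012 and on chromosome 5 from 97117447 to 97118446. The members with the nearest neighbours were on chromosome 17 from 7234840 to 7235699, at 12501 bp, and on chromosome 14 from 31328630 to 31329200, at 12505 bp. Just outside lay an interval on chromosome 13 from 117764619 to 117764855, at 12497 bp, and one on chromosome 8 from 12962226 to 12962408, at 12492 bp. None of these 8 intervals overlapped either factor.

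A member's nearest H3K27ac interval was short about as often as that of neighboured narrow intervals or an interval of the whole list. For 1732 members the nearest interval was narrower than 1000 bp. It was 1000 bp or wider for 55.6% of members, against 57.7% of neighboured narrow intervals. In the whole list, 43.7% of intervals were narrower than 1000 bp. The nearest interval had a median width of 1197 bp beside members and 1380 bp beside neighboured narrow intervals. For 1584 members (40.6%) the next interval on at least 1 side was another member. No such share was computed for other intervals, so whether members follow each other more than other intervals do was not tested. The nearest interval carried GATA4 for 9.69% of members and for 8.84% of neighboured narrow intervals.

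GATA4 and TCF7L2 were precipitated separately from H3K27ac and were not used by the rule, so their overlap could be compared. Most isolated narrow intervals carried neither: 3783 of 3899, or 97.0%. GATA4 overlapped 109 of them by 1 bp or more, 2.80% (95% Wilson interval 2.32 to 3.36). Among neighboured narrow intervals, GATA4 overlapped 128 of 28864, 0.443% (0.373 to 0.527). In all narrow intervals the share was 0.723%, and in all H3K27ac intervals it was 8.67%. Members were thus below the whole list and above narrow intervals in company.

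The difference from neighboured narrow intervals was larger than the counting error. The odds ratio was 6.46, with an exact 95% interval of 4.94 to 8.42 (Fisher's two-sided exact test over intervals, p = 3.82e-39, Benjamini-Hochberg adjusted p over 2 tests 7.63e-39). It was 6.26 (4.84 to 8.11) within strata of 100 bp in width, and 6.53 (5.03 to 8.47) within chromosomes. These p-values and intervals refer to positions within these lists, not to replicate animals, and neighbouring intervals are not fully independent. Of the 237 narrow intervals with GATA4, 46.0% were members, although members made up 11.9% of the narrow intervals.

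The size of this difference depended on what the members were set against. Neighboured narrow intervals without a neighbour within 3000 bp carried GATA4 in 63 of 5487 cases (1.15%), and against these alone the odds ratio fell to 2.48 (1.79 to 3.44; Fisher's exact p = 7.21e-09). Neighboured narrow intervals in stretches (intervals joined across gaps of up to 12.5 kb) that held no interval of 1000 bp or wider carried GATA4 in 36 of 2456 cases (1.47%). Against these, a comparison added after the data were seen, members had an odds ratio of 1.93 (1.31 to 2.91; p = 0.000516 by Fisher's exact test). In stretches with a wider interval the share was 0.348%, 92 of 26408.

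Counting stretches in place of intervals ended the call and turned its direction. Of 1058 stretches made of 2 or more narrow intervals alone, 35 held GATA4, 3.31% (2.39 to 4.57), against 2.80% of isolated narrow intervals. This gave an odds ratio of 0.841 (0.566 to 1.28; p = 0.409 by Fisher's exact test), in a comparison also added after the data were seen. Stretches of 2 narrow intervals held GATA4 in 23 of 821 cases (2.80%), those of 3 in 9 of 173 (5.20%) and those of 4 or more in 3 of 64 (4.69%). Such stretches offer more acetylated DNA, with a median of 1029 bp against 453 bp for a member.

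Per length of acetylated DNA, members were denser in GATA4 than the whole list. They held 91 GATA4 midpoints in 1.87 Mb, or 48.7 per Mb (exact Poisson interval 39.2 to 59.8). Neighboured narrow intervals held 7.39 per Mb (6.01 to 8.99), those in stretches of narrow intervals alone held 23.4 per Mb (15.4 to 34.0), and all H3K27ac intervals held 33.2 per Mb (32.5 to 33.9). Isolated intervals of 1000 bp or wider were denser still, with 62.7 per Mb (59.0 to 66.6). Members were thus below the whole list by share and above it by density, and no test was made on these densities.

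The share with GATA4 was higher at larger distances to the nearest H3K27ac interval, up to the threshold of the rule. It was 0.253% (0.185 to 0.346) for narrow intervals with a neighbour at 0.5 to 1 kb, 0.319% at 1 to 2 kb, 0.660% at 2 to 5 kb and 1.29% (0.953 to 1.73) at 5 to 12.5 kb. Among members it was 2.66% (2.00 to 3.53) at 12.5 to 25 kb, 2.56% at 25 to 50 kb and 2.78% at 50 to 100 kb. Beyond 100 kb it was 3.68% (2.40 to 5.62), 20 of 543. The intervals of the 4 classes of members overlapped each other, so no further rise beyond 12.5 kb was detectable at these counts. Median widths differed little over the classes, from 411 to 469.5 bp.

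**Figure D2:**
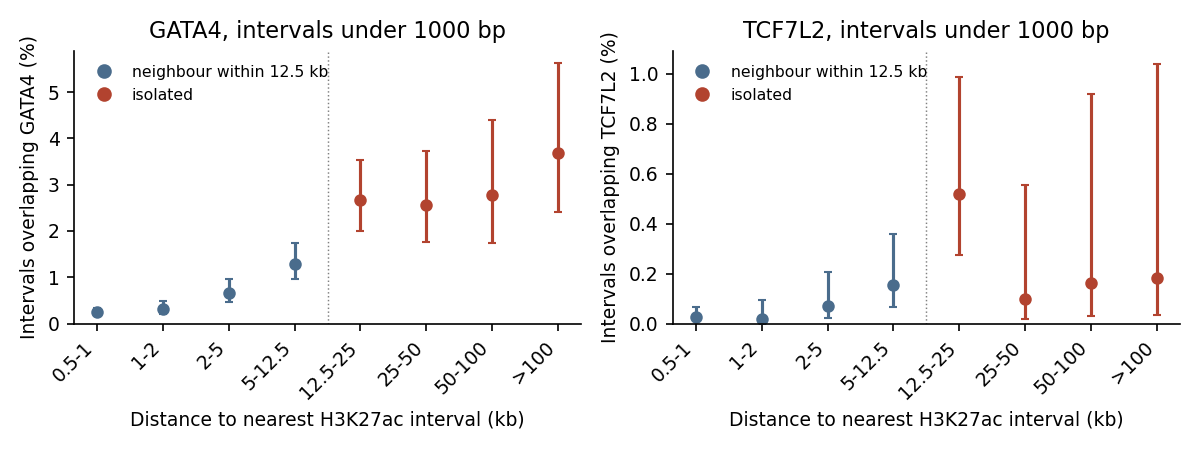
Share of H3K27ac intervals under 1000 bp that overlapped GATA4 (left) or TCF7L2 (right), in %, by distance in kb to the nearest other H3K27ac interval; points are shares and bars 95% Wilson intervals, and the dotted line marks 12.5 kb. The GATA4 share ran from 0.253% to 1.29% below 12.5 kb and lay between 2.56% and 3.68% above it, whereas TCF7L2 was highest at 12.5 to 25 kb, with wide intervals.

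Wider members carried GATA4 more often. The share was 1.42% (13 of 917) under 250 bp, 2.21% (28 of 1268) at 250 to 500 bp, 2.97% (30 of 1009) at 500 to 750 bp and 5.39% (38 of 705) at 750 to 1000 bp. The Wilson intervals of the narrowest class (0.830 to 2.41) and the widest class (3.95 to 7.31) did not overlap. The median width was 625 bp for members with GATA4 and 446 bp for those without, and a wider interval offers more places to overlap. In neighboured narrow intervals the share ran from 0.217% to 1.09% over the same classes. The odds ratio of isolated over neighboured intervals was 6.62 (2.85 to 15.2), 7.47 (4.32 to 12.8), 7.0 (4.07 to 12.0) and 5.17 (3.27 to 8.09) in the same 4 classes.

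Isolated intervals outside the rule, of 1000 bp or wider, extended this series. At 1 to 2 kb GATA4 overlapped 9.97% of isolated and 2.42% of neighboured intervals, an odds ratio of 4.47 (3.70 to 5.41). It was 2.41 (2.12 to 2.75) at 2 to 4 kb and 2.17 (1.85 to 2.53) at 4 to 8 kb. At 8 kb or more the shares were 40.1% and 39.4% and the odds ratio 1.03 (0.776 to 1.37). The higher share of GATA4 in isolated intervals was therefore seen in every width class below 8 kb, and the change of the ratio with width was not tested.

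**Figure D3:**
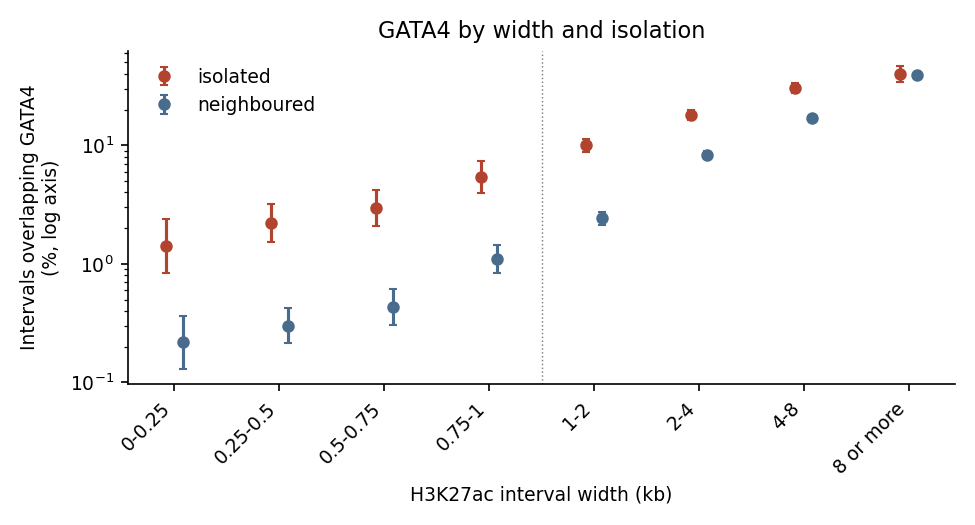
Share of H3K27ac intervals overlapping GATA4 (%, log axis) by interval width in kb, for isolated intervals and for those with a neighbour within 12.5 kb; bars are 95% Wilson intervals and the dotted line marks 1 kb. Isolated intervals lay above neighboured ones in each class below 8 kb, and both were near 40% at 8 kb or more (40.1% and 39.4%).

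Where GATA4 overlapped a member it usually did so with 1 peak. In all, 111 GATA4 peaks, 1.05% of the GATA4 list, lay on the 109 members, and 2 members held 2 each. Of these peaks, 57 lay wholly inside the member and 54 crossed its border. The midpoint lay inside for 91 peaks, and the distance from the member's centre had a median of 160 bp (quartiles 59 and 299.8 bp). In neighboured narrow intervals 66 of 131 GATA4 peaks lay wholly inside, with a median distance of 152.5 bp from the centre.

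The GATA4 peaks on members had nearly the median width of those on other narrow acetylation. It was 176 bp (quartiles 137 and 226 bp), against 175 bp on neighboured narrow intervals, 195 bp over all GATA4 peaks in H3K27ac and 184 bp in the whole GATA4 list. Width is the only measure of a peak that the lists give, and these medians were not tested.

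GATA4 was also found just outside the called acetylation of members. A further 72 members (1.85%) had no overlap and a GATA4 peak within 1 kb. This brought the members with GATA4 on or beside them to 181, or 4.64%. Among neighboured narrow intervals, 299 of 28864 (1.04%) had GATA4 on them or within 1 kb. The odds ratio at this range was 4.65 (3.83 to 5.63), lower than the 6.46 for overlap alone. There were 73 GATA4 peaks beside members in this range, with a median width of 164 bp, and 61 of them lay within 500 bp of the border. By the distance in the rule, no other H3K27ac interval lies near enough for these peaks to overlap. The density of GATA4 midpoints fell from 48.7 per Mb inside members to 24.1 (exact Poisson interval 17.7 to 32.1) in the first 250 bp on both sides. It was 16.4 (11.2 to 23.2) at 250 to 500 bp and 3.33 (1.78 to 5.70) at 500 to 1000 bp. From 1 to 12.5 kb it stayed between 0.641 and 1.41 per Mb. Outside the acetylation that was called, GATA4 was thus densest in the first 500 bp.

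Neighboured narrow intervals had another profile. The smallest distance between H3K27ac intervals was 501 bp, so the first 500 bp beside any interval holds no other H3K27ac interval. In those 500 bp the density beside neighboured narrow intervals was 4.57 per Mb (3.54 to 5.82) at up to 250 bp and 3.40 (2.51 to 4.49) at 250 to 500 bp, below the values beside members. Farther out, where other acetylated intervals lie by the rule, it was 9.87 per Mb at 3 to 5 kb and 10.5 at 5 to 7.5 kb. Members had 0.641 and 1.13 per Mb at these distances, where their flanks lack other H3K27ac intervals by the rule. Flanks of neighbouring intervals overlap, most of all for neighboured narrow intervals, so that a GATA4 peak can count more than once and the Poisson intervals are then too narrow.

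**Figure D4:**
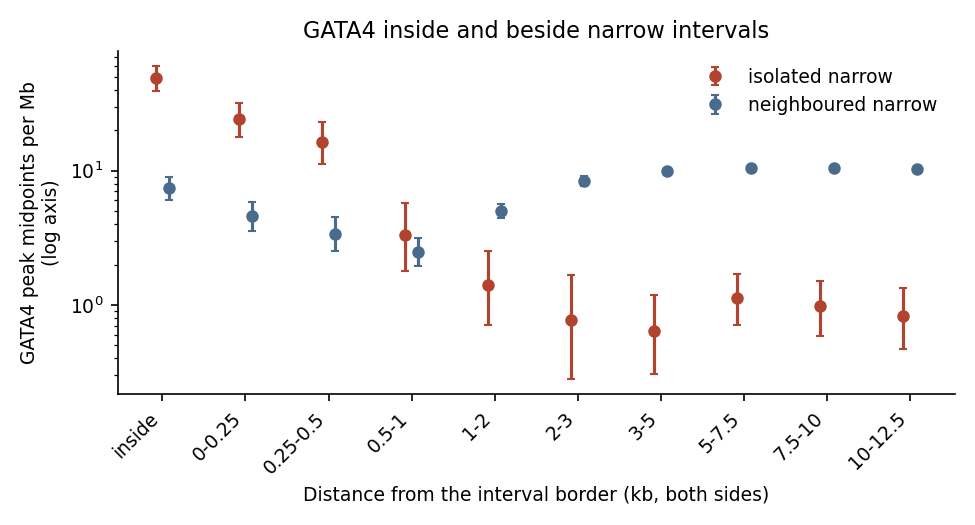
GATA4 peak midpoints per Mb (log axis) inside narrow H3K27ac intervals and in flanks on both sides by distance in kb from the border; bars are exact 95% Poisson intervals, and counts are summed over 3899 isolated or 28864 neighboured intervals, so a peak in overlapping flanks counts for each and the bars of the neighboured flanks are too short. Around isolated intervals the density fell from 48.7 inside to 3.33 at 0.5 to 1 kb, whereas around neighboured intervals it was 2.49 at 0.5 to 1 kb and 10.5 at 5 to 7.5 kb.

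For the 3790 members without overlap the nearest GATA4 peak was a median of 108 kb away (quartiles 50.2 and 237 kb). This distance and the share that follows were not computed for other H3K27ac intervals. Whether they are particular to members was not tested. Of all 3899 members, 249 (6.39%) had a GATA4 peak on them or within 12.5 kb of their borders, the 109 with overlap included: 233 had 1, 14 had 2 and 2 had 3. The 2 members with 3 GATA4 peaks were next to each other on chromosome 8, from 126077422 to 126077633 and from 126094370 to 126094689, and 16736 bp apart. The first was 212 bp wide under a GATA4 peak of 135 bp, and the second was 320 bp wide under a GATA4 peak of 155 bp. Their flanks overlap, so a GATA4 peak between them can count for both.

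The members with the widest GATA4 peaks differed in how the peak lay on the acetylation. The widest, of 956 bp from 3866342 to 3867297 on chromosome 10, crossed the border of a member of 441 bp from 3866007 to 3866447, and its midpoint was 592.5 bp from the member's centre. Next was a GATA4 peak of 425 bp on chromosome 13 from 19775143 to 19775567. It lay inside a member of 932 bp (19774864 to 19775795) with its midpoint 25.5 bp from the centre. This member was 59.4 kb from the nearest other H3K27ac interval. A GATA4 peak of 367 bp on chromosome 7 from 104777942 to 104778308 was as wide as its member of 366 bp (104777876 to 104778241), with midpoints 66.5 bp apart. On chromosome 12 a GATA4 peak of 283 bp (82695974 to 82696256) lay 32 bp from the centre of a member of 955 bp (82695606 to 82696560). Of these 4, those on chromosomes 13 and 12 had GATA4 near the middle of the acetylated island.

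The others of the 10 widest had GATA4 peaks of 283 to 364 bp. Chromosome 3 had 2 of these members, from 55655967 to 55656721 and from 135670287 to 135670901. The others were on chromosome 4 (126234164 to 126234889), on chromosome 2 (127657290 to 127658076), on chromosome 9 (23385384 to 23385815) and on chromosome 8 (4778716 to 4779547). The member on chromosome 3 from 135670287 was the most remote of the 10, at 180 kb from the nearest other H3K27ac interval. None of the 10 overlapped TCF7L2.

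TCF7L2 lay on 12 members, 0.308% (95% Wilson interval 0.176 to 0.537), against 13 of 28864 neighboured narrow intervals, 0.0450% (0.0263 to 0.0770). The share was 0.0763% in all narrow intervals and 0.821% in all H3K27ac intervals. The odds ratio of members over neighboured narrow intervals was 6.85, with an exact 95% interval of 2.85 to 16.3 (Fisher's two-sided exact test, p = 9.21e-06, adjusted p over 2 tests 9.21e-06). This call rested on 12 and 13 intervals with TCF7L2. It ended under 5 of 17 alternatives, 2 of them planned, and the odds ratio was lower in each of these 5. With isolation beyond 25000 bp, which leaves 3 intervals with TCF7L2, the odds ratio fell to 1.92 (0.369 to 6.41; p = 0.228 by Fisher's exact test). Against neighboured narrow intervals without a neighbour within 3000 bp it was 2.42 (0.876 to 7.25; Fisher's exact p = 0.0640). Of the 12, 9 lay 12.5 to 25 kb from the nearest other H3K27ac interval. Away from direct overlap, 1 member had TCF7L2 within 1 kb and 9 within 12.5 kb.

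Per length, members held 5.89 TCF7L2 midpoints per Mb (exact Poisson interval 2.94 to 10.5), from 11 midpoints, against 0.813 (0.406 to 1.45) in neighboured narrow intervals and 2.55 (2.36 to 2.76) in all H3K27ac intervals. The interval for members did not overlap that of either group. It did overlap those of isolated intervals of 1000 bp or wider, with 6.68 per Mb (5.50 to 8.03), and of neighboured narrow intervals in stretches of narrow intervals alone, with 1.73 per Mb (0.210 to 6.25). The 12 TCF7L2 peaks had a median width of 229.5 bp, and 5 of them lay wholly inside the member.

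GATA4 was present on 5 of the 12 members with TCF7L2 (41.7%) and on 104 of the 3887 without (2.68%). In neighboured narrow intervals the counts were 6 of 13 (46.2%) and 122 of 28851 (0.423%), and in all H3K27ac intervals 55.7% and 8.28%. Few intervals stand behind the joint counts in narrow intervals, and none of these joint counts was tested.

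The 5 members with both factors lay on 5 chromosomes. On chromosome 2 a member of 173 bp from 60240767 to 60240939 was covered by a GATA4 peak of 227 bp (60240740 to 60240966) and a TCF7L2 peak of 207 bp (60240753 to 60240959). The GATA4 midpoint was at the member's centre and the TCF7L2 midpoint 3 bp from it, so that the midpoints of all 3 called intervals nearly coincided. On chromosome 17 a member of 468 bp from 4974825 to 4975292 held a GATA4 peak of 182 bp and a TCF7L2 peak of 243 bp, both wholly inside it. The TCF7L2 midpoint was 17.5 bp from the centre.

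In the other 3 both factors lay at a border. The widest TCF7L2 peak on any member, 402 bp from 20930536 to 20930937 on chromosome 5, reached over the border of a member of 971 bp (20930732 to 20931702), as did a GATA4 peak of 254 bp (20930496 to 20930749). On chromosome 10 a member of 559 bp from 117578164 to 117578722 met a TCF7L2 peak of 312 bp (117578539 to 117578850) and a GATA4 peak of 142 bp (117578670 to 117578811) at its right border. On chromosome 11 a member of 949 bp from 50744217 to 50745165 met a TCF7L2 peak of 226 bp (50744973 to 50745198) and a GATA4 peak of 135 bp (50745094 to 50745228), again at its right border.

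The 7 members with TCF7L2 and without GATA4 had their nearest GATA4 peak 21.4 to 212 kb away. The widest of their TCF7L2 peaks was 333 bp on chromosome 1 (89070990 to 89071322), at the left border of a member of 640 bp (89071094 to 89071733). On chromosome 2 a TCF7L2 peak of 223 bp (75423125 to 75423347) lay 24.5 bp from the centre of a member of 538 bp (75422992 to 75423529). Members on chromosome 14 (61631214 to 61631897), on the X chromosome (72759544 to 72760476) and on chromosome 10 (78250237 to 78250827) also held the whole TCF7L2 peak. The last was 194 kb from the nearest other H3K27ac interval, the farthest of the 12. The remaining 2 were members of 125 bp on chromosome 4 (130141767 to 130141891) and of 253 bp on chromosome 11 (17563938 to 17564190), each with a TCF7L2 peak over its border.

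Isolated narrow intervals were found on all 19 autosomes and on the X chromosome. They made up 8.23% of the narrow intervals on chromosome 11 and 14.0% on chromosome 14, the lowest and highest autosomes, and 31.3% on the X chromosome (171 members). The distance part of the rule depends on how densely H3K27ac was called. This was 7.84 intervals per Mb on X against 23.5 to 45.6 on autosomes, so these shares are a description. Members per Mb were less variable, from 1.05 on X to 1.84 on chromosome 13. GATA4 overlapped a larger share of members than of neighboured narrow intervals on 20 of 20 chromosomes. The share of members ran from 0.656% on chromosome 1 (2 of 305; Wilson interval 0.180 to 2.36) to 6.22% on chromosome 8 (12 of 193; 3.59 to 10.6). These lowest and highest intervals did not overlap, but they were picked as the extremes of 20 chromosomes. A difference between chromosomes was not tested. The other 18 chromosomes lay between 1.50% and 4.14%. On X, 4 of 171 members (2.34%, 0.913 to 5.86) carried GATA4, within the autosomal range.

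**Figure D5:**
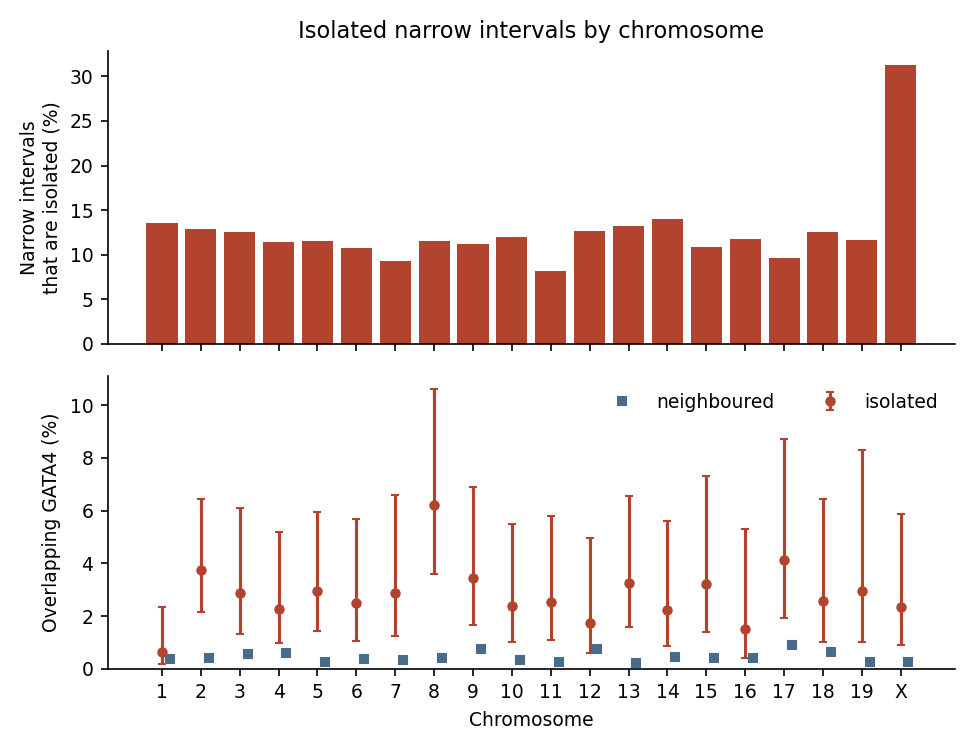
Share of narrow H3K27ac intervals that were isolated (top, %) and share overlapping GATA4 (bottom, %) by chromosome; circles are isolated intervals with 95% Wilson intervals and squares neighboured intervals. The X chromosome had the highest share of isolated intervals (31.3%), and the circles lay above the squares on 20 of 20 chromosomes.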

How the data were processed

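The authors deposited 1 list of intervals per antibody, with a chromosome, a start and an end in bp and no other value (no height, fold or p-value). The submitters' processing notes name Bowtie2 (version 2.2.6.2), MACS2 (version 2.1.1.20160309.0), deepTools and FastQC (version 0.10.0), with the build mm9. The sources used here do not state the peak threshold, the filters or how the 2 biological replicates were combined. Depth is unknown, so intervals on shares (95% Wilson) and densities (exact Poisson) cover counting error over intervals only. The distance between neighbours is the start of the next interval minus the end of the previous one. Overlap means 1 bp or more shared. Shares were compared with Fisher's exact test (two-sided) with conditional odds ratios. Strata used the Mantel-Haenszel odds ratio and an exact conditional p. Benjamini-Hochberg adjustment was made over 2 tests. Procedures were tested on simulated data. The members, classes and comparisons were chosen with earlier results of these data known. Intervals were named by rule: those with TCF7L2, the 10 with the widest GATA4 peak, the 5 most distant, those with the most GATA4 peaks within 12.5 kb (14 shared a count of 2 and are given as a count), and those at the thresholds. Computations used scipy 1.17.1, statsmodels 0.14.6, pandas 2.3.3, numpy 2.4.6 and matplotlib 3.10.9 under Python 3.11.15.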

Additional observations from a re-analysis of the deposited data

How the results depend on the processing

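The odds ratio for GATA4 kept its direction and its side of the threshold in 16 of 17 alternatives, among them all 12 planned ones. The planned ones were chosen with earlier results of these data known, and 5 more were added after the data were seen. The exception, each stretch of narrow intervals alone counted once, reversed the odds ratio to 0.841. Leaving out 1 chromosome at a time gave 6.01 (without chromosome 8) to 6.80 (without chromosome 1). With the background limited to intervals without a neighbour within 3000 bp it was 2.48, and 2.47 within width strata. For TCF7L2, 12 of 17 alternatives kept the call. The odds ratio no longer passed with isolation beyond 25000 bp (1.92), the background without a neighbour within 3000 bp (2.42, and 2.40 within width strata), the background in stretches of narrow intervals alone (3.79) and each such stretch counted once (1.63). In these settings 12 members and 2 to 7 background intervals carried TCF7L2, apart from the 25000 bp setting, with 3 against 22. The odds ratio was below the main value of 6.85 in each of them. Whether the low counts or the choice of background ended the call was not tested. Leaving out 1 chromosome gave 5.71 to 8.12. The difference in median GATA4 width, members minus neighboured, was 1 bp and moved to -3.50 bp on autosomes and -8.50 bp by midpoints. The planned setting without factor peaks of 1000 bp or wider removed no peak on narrow intervals and repeated the main values. On narrow intervals the widest GATA4 peak was 956 bp and the widest TCF7L2 peak 563 bp. This setting is counted above as unchanged for each result and adds no support. No paired analysis was possible because each antibody had 1 list. Unknown depth limits every list: an interval missing from the GATA4 or TCF7L2 list can be unbound or below the authors' threshold. Likewise, the gaps around members can hold acetylation below that threshold. The lists give no height, so how strong the members are is unknown.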
